A study of Mus musculus with 6 samples.

Results

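The genes described here are 33 genes of smooth muscle contraction in the mouse gastric corpus, the glandular region that makes acid. They were taken by symbol from a list that was drawn up with earlier results of these data known. It covers actin, myosin, their regulators, the cytoskeleton that anchors them and the channels and factors that control them. Of the 33, 32 were named by the platform annotation and entered the comparison among 19919 genes. The remaining one, Itpr1, is carried by a probe set that this annotation does not list but whose ID is the gene's ID in the RefSeq table, so it was read from a fit over all 20985 probe sets. All animals were wildtype Balb/c females of 8 to 12 weeks. For 3 samples, dexamethasone, a synthetic glucocorticoid, was given in the drinking water at 50 mg/l for 3 days and the solution was renewed on day 2, and 3 samples from untreated animals were the controls. Each sample was hybridised to 1 Affymetrix array, and values are log2 expression after RMA (robust multi-array average), so a difference of 1 is a doubling. The labels call the samples biological replicates and do not say whether 1 animal gave 1 sample.

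Smooth muscle shortens when calcium enters or leaves its stores, binds calmodulin and switches on myosin light chain kinase, which phosphorylates the myosin light chain so that myosin can pull on actin. Myosin phosphatase reverses this, and nitric oxide, through cyclic GMP and its kinase, relaxes the cell. Actin filaments end in dense bodies and adhesion plaques, which tie the contractile apparatus to desmin filaments and to the matrix. In the stomach these cells form the muscle layers of the wall, the muscularis mucosae and the walls of vessels, while the squamous forestomach and the oesophagus, whose muscle in the mouse is striated, adjoin the glandular part. The transcription factor SRF and its cofactor myocardin drive many of these genes through a DNA motif called the CArG box. As the RNA is from whole tissue, more muscle cells and more RNA per muscle cell cannot be told apart in any of the values that follow.

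The arrays differed in markers of neighbouring tissue before any comparison of the groups. The mean log2 value over 23 squamous epithelium genes reached 9.92 and 9.96 in dexamethasone replicates 1 and 2. It was also high, at 9.73, in control replicate 2, and it was 8.30 and 8.44 in the remaining controls and 8.44 in dexamethasone replicate 3. The mean over 31 striated muscle genes was 8.22 and 8.67 in dexamethasone replicates 1 and 2 and between 7.36 and 7.57 on the other 4 arrays. Acta1, the actin of skeletal muscle, stood at 10.55 and 11.35 in those 2 dexamethasone samples, at 8.49 in dexamethasone replicate 3 and between 8.19 and 8.59 in the controls. Striated muscle markers were therefore high in 2 treated samples and in no control, and squamous markers in those 2 and in 1 control. Their part in the muscle gene results was not tested beyond the fits with them as covariates given with the results. Array medians lay between 7.94 and 7.98, and Pearson correlations between arrays, taken across genes, which are not independent replicates, were between 0.983 and 0.996.

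Smooth muscle genes were mostly higher after dexamethasone, but few passed the test. Of the 32 members, 3 rose (Actg2, Cnn1 and Actn1), 0 fell and 29 did not pass (limma, Benjamini-Hochberg adjusted over all 19919 genes, threshold 0.05). That is 9.38% of the members, beside 1.84% of all genes called in either direction, 0.798% higher and 1.04% lower. Because the members were chosen with earlier results of these data known, such shares describe the list and are no independent test. The log2 change was above 0 in 30 members, against 50.9% of all genes, and 23 members changed by 0.3 or more upward, which 3.36% of all genes exceeded. The median log2 change was 0.44 over the members and 0.0023 over all genes. At an unadjusted p under 0.05, 20 members were higher and 0 lower, while 5.97% of all genes were higher and 7.14% lower. In 11 members every dexamethasone value lay above every control value, as it did in 8.84% of all genes, and in 0 members every one lay below, as in 9.46% of all genes. The members also varied more within groups than the typical gene, with a median standard error of 0.145 against 0.0775 over all genes (SE, n = 3 per group).

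**Figure D1:**
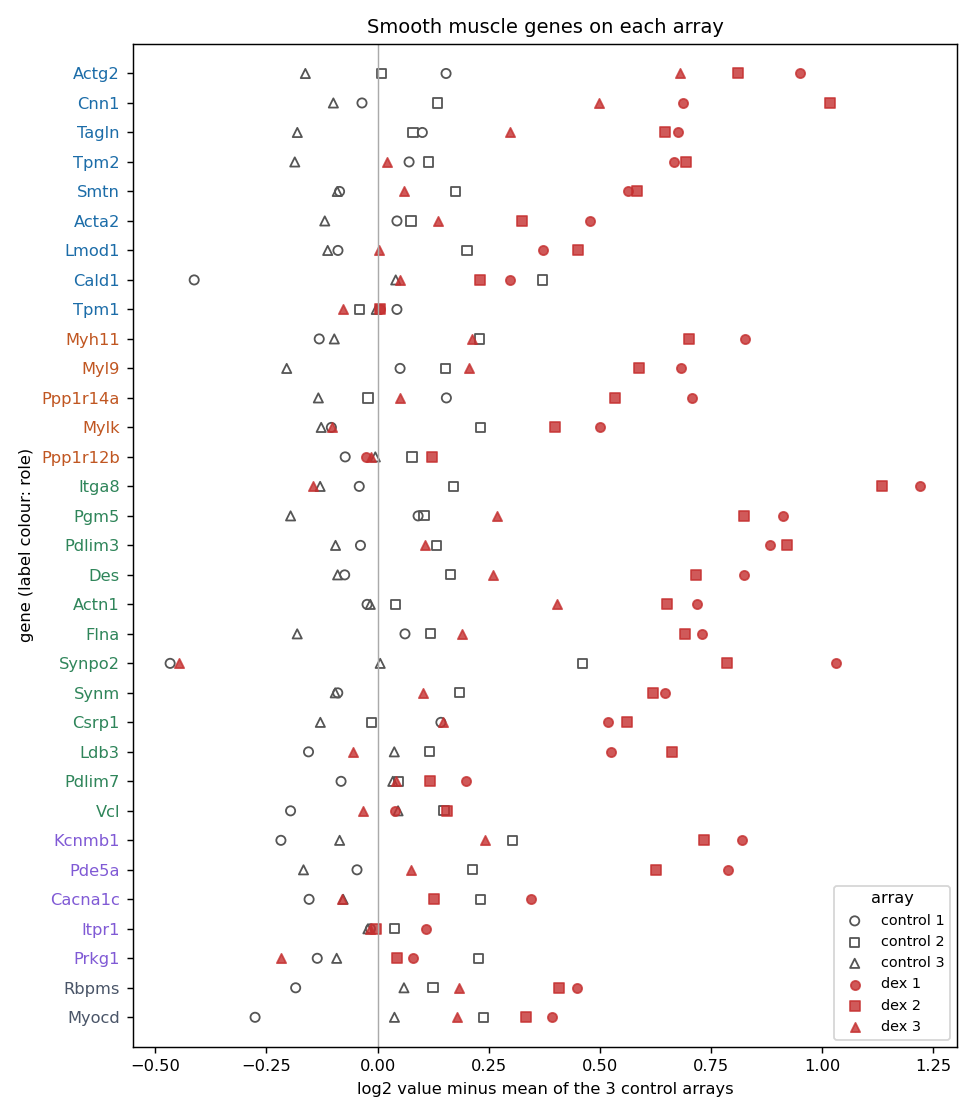
Each row is 1 gene, coloured by role, and each point is 1 array, plotted as its log2 value minus the mean of the 3 control arrays. Red circles and squares (dexamethasone replicates 1 and 2) lie to the right of every open control symbol in 26 of the 32 tested genes, while red triangles (dexamethasone replicate 3) do so in 11, beside 17.3% and 25.6% of all genes.

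The 3 treated samples were not alike. Dexamethasone replicates 1 and 2 both lay above every control in 26 of 32 members, beside 17.3% of all genes. Dexamethasone replicate 3 was the lowest of the treated samples in 31 members, beside 35.8% of all genes, and lay above the control range in 11, within it in 18 and below it in 3. Over all genes that sample lay above the control range in 25.6%, within it in 50% and below it in 24.4%. Averaged over the 32 members, the level was 10.89 and 10.85 in dexamethasone replicates 1 and 2, 10.41 in dexamethasone replicate 3 and 10.24, 10.46 and 10.23 in control replicates 1, 2 and 3. Among the controls, replicate 2, the one with high squamous markers, was the highest in 27 members, beside 32% of all genes.

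The actins and the proteins that sit on the thin filament, 9 genes, held 2 of the 3 calls, beside 0.798% of all genes called higher. Actg2 encodes enteric gamma actin, the main actin of gut smooth muscle. Its control values were 11.90, 11.76 and 11.59 and its dexamethasone values 12.70, 12.56 and 12.43. The groups were apart on every array, including dexamethasone replicate 3. Actg2 rose 1.76-fold (log2 change 0.81, SE 0.10, 95% interval 0.58 to 1.05, with n = 3 per group and adjusted p = 0.0114 by limma). Its call was lost without control replicate 3 (adjusted p = 0.0559), dexamethasone replicate 1 (0.0539) or dexamethasone replicate 2 (0.0699). It was also lost with the mean of the striated muscle genes as a covariate. Over 17 other fits Actg2 was called in 12, and its log2 change stayed between 0.68 and 0.92. Of those fits, averaging probe sets and fitting all probe sets nearly repeated the main fit. They are no separate check, here or in the counts of other fits given for later genes.

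Cnn1 encodes calponin 1, an actin-binding brake on myosin that marks mature smooth muscle. It stood at 11.01, 11.18 and 10.95 in the controls and at 11.73, 12.06 and 11.54 after dexamethasone. The groups did not overlap, and dexamethasone replicate 2 was the highest. Cnn1 rose 1.66-fold (log2 change 0.73 with SE 0.13 and n = 3 per group, adjusted p = 0.0397 by limma). That call ended with quantile normalization (adjusted p = 0.0516) and without control replicate 1, 2 or 3 (0.074, 0.0697 and 0.203) or dexamethasone replicate 1 or 2 (0.146 and 0.0988). It also ended with the mean of the striated muscle genes as a covariate. Over 17 other fits Cnn1 was called in 9, with a log2 change between 0.485 and 0.914.

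Acta2, the vascular and general smooth muscle alpha actin, differed less than its enteric relative. Its controls were 13.08, 13.11 and 12.92 and its dexamethasone values 13.51, 13.36 and 13.17. The groups were apart, but dexamethasone replicate 3 lay just above the highest control. The log2 change was 0.31 (SE 0.099, limma adjusted p = 0.219). Actin genes are closely related in sequence, so signal may be split uncertainly among Acta2, Actg2 and the striated actin Acta1, which differed most between the treated samples. Tagln, which encodes transgelin (SM22), another actin-binding protein, read 11.67, 11.65 and 11.39 in controls and 12.25, 12.22 and 11.87 after dexamethasone. It had the third smallest adjusted p of the thin filament genes (log2 change 0.54, SE 0.12, limma adjusted p = 0.0883), and its groups did not overlap.

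Other thin filament genes did not pass. Tpm2 (beta tropomyosin), Smtn (smoothelin) and Lmod1 (leiomodin 1, which nucleates actin filaments) showed log2 changes of 0.46, 0.40 and 0.28 (limma adjusted p = 0.330, 0.299 and 0.452), and dexamethasone replicate 3 lay within the control range for each. Cald1 (caldesmon) had a log2 change of 0.19 with a 95% interval of -0.23 to 0.61. Tpm1 (alpha tropomyosin), which is expressed well beyond muscle, stayed between 12.38 and 12.50 on all 6 arrays. Its log2 change was -0.02 (95% interval -0.16 to 0.12), so its interval ends below the changes fitted for Actg2, Cnn1 and Tagln.

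The thick filament and the enzymes that switch it gave no call (by limma's unadjusted p under 0.05, 3 of 5 higher and 0 lower, beside 5.97% and 7.14% of all genes). Myh11, the smooth muscle myosin heavy chain, read 12.23, 12.59 and 12.26 in controls and 13.19, 13.06 and 12.57 after dexamethasone. Dexamethasone replicates 1 and 2 were above all controls and replicate 3 was just under control replicate 2. The log2 change was 0.58 (SE 0.17, limma adjusted p = 0.175). Myl9, the regulatory light chain that is phosphorylated on contraction, stood at 11.70, 11.80 and 11.44 against 12.33, 12.23 and 11.85, with groups apart (log2 change 0.49, SE 0.14, adjusted p = 0.171).

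Mylk, the light chain kinase, showed the 2 high treated samples without the third. Its values were 10.90, 11.24 and 10.88 in controls and 11.51, 11.41 and 10.91 after dexamethasone (log2 change 0.27, SE 0.17, limma adjusted p = 0.576). Ppp1r14a (CPI-17), an inhibitor of myosin phosphatase, had a log2 change of 0.43 (adjusted p = 0.312). Ppp1r12b, a targeting subunit of that phosphatase, was level between the groups, at 8.49, 8.64 and 8.56 in controls and 8.54, 8.69 and 8.55 after dexamethasone (log2 change 0.03, 95% interval -0.14 to 0.19).

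**Figure D2:**
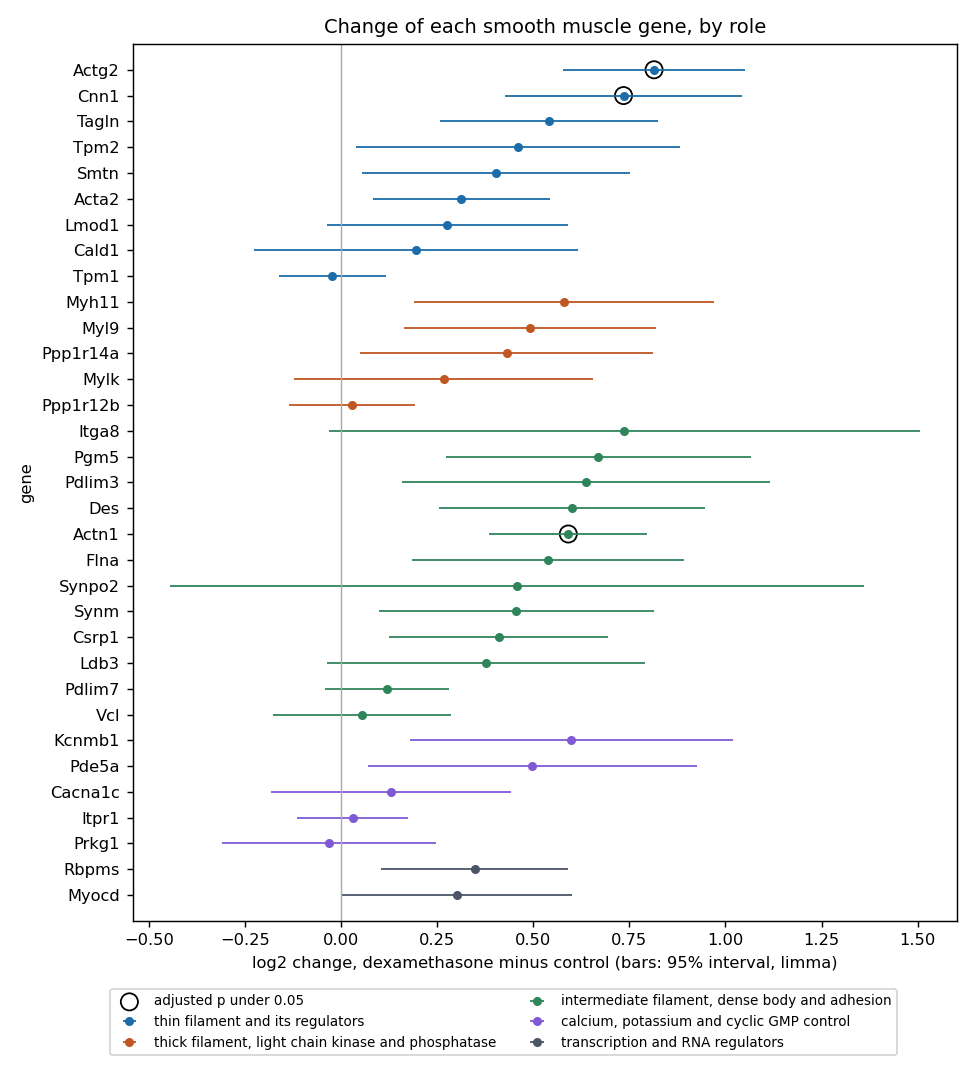
Points are log2 changes (dexamethasone minus control) of the 33 genes, coloured by role, and bars are 95% intervals from limma; circled genes had an adjusted p under 0.05. Actg2, Cnn1 and Actn1 are circled, and 20 of the 32 tested genes have intervals wholly above 0.

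Among genes of dense bodies, intermediate filaments and adhesion, 1 of 12 rose and 0 fell, beside 0.798% and 1.04% of all genes. By limma's unadjusted p under 0.05, 7 were higher and 0 lower, beside 5.97% and 7.14% of all genes. Actn1 encodes alpha-actinin 1, the cross-linker that holds actin filaments in dense bodies and adhesions, and is expressed in many cell types. It read 10.48, 10.54 and 10.48 in controls and 11.22, 11.15 and 10.90 after dexamethasone. The controls were tightly grouped and all 3 treated samples lay above them. Actn1 rose 1.51-fold (log2 change 0.59 with SE 0.088 and n = 3 per group, adjusted p = 0.0206 by limma). Its call was lost without control replicate 2 (adjusted p = 0.0571), control replicate 3 (0.126), dexamethasone replicate 1 (0.086) or dexamethasone replicate 2 (0.12). It was also lost with the mean of the striated muscle genes as a covariate. Over 17 other fits Actn1 was called in 11, with a log2 change between 0.405 and 0.684.

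Des encodes desmin, the intermediate filament of all muscle. It stood at 10.56, 10.80 and 10.55 in controls and 11.46, 11.35 and 10.90 after dexamethasone. Its groups did not overlap, with dexamethasone replicate 3 just above control replicate 2 (log2 change 0.60, SE 0.15, limma adjusted p = 0.117). Pgm5 (aciculin, an adhesion plaque protein), Flna (filamin A, an actin cross-linker) and Csrp1 (a LIM protein of the actin cytoskeleton) also had groups apart, with log2 changes of 0.67, 0.54 and 0.41 (limma adjusted p = 0.128, 0.166 and 0.191).

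Itga8, the alpha 8 integrin of smooth muscle and mesenchyme, had one of the largest differences between group means and a wide split among treated samples. Its values were 8.40, 8.61 and 8.31 in controls and 9.66, 9.58 and 8.30 after dexamethasone. Dexamethasone replicate 3 was below every control, and the log2 change of 0.74 had a 95% interval of -0.03 to 1.51 (limma adjusted p = 0.406). Synpo2 (synaptopodin 2, or myopodin) showed the same split, at 9.94, 10.87 and 10.41 in controls and 11.44, 11.19 and 9.96 after dexamethasone (log2 change 0.46, SE 0.39, adjusted p = 0.693). Itga8 and Synpo2 changed sign when dexamethasone replicates 1 and 2 were left out, to -0.145 and -0.448.

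Pdlim3, Synm (synemin) and Ldb3, whose products are also part of striated muscle, had log2 changes of 0.64, 0.46 and 0.38 (limma adjusted p = 0.230, 0.250 and 0.430). Dexamethasone replicate 3 lay within the control range for each of these 3 genes. Pdlim7, a PDZ and LIM domain protein, had a log2 change of 0.12 and Vcl (vinculin, a general adhesion protein) of 0.05, the latter with a 95% interval of -0.18 to 0.29.

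Genes of calcium, potassium and cyclic GMP control gave no call among the 4 tested (by limma's unadjusted p under 0.05, 2 higher and 0 lower, beside 5.97% and 7.14% of all genes). Kcnmb1, the beta 1 subunit of the calcium-activated potassium channel that damps contraction, differed by 0.60 in log2 (SE 0.18, adjusted p = 0.195). Pde5a, the phosphodiesterase that breaks down cyclic GMP, had a log2 change of 0.50 (adjusted p = 0.297). Cacna1c, the pore of the L-type calcium channel, read 8.55, 8.94 and 8.63 in controls and 9.05, 8.83 and 8.62 after dexamethasone. The groups overlapped and the log2 change was 0.13 (95% interval -0.18 to 0.44, adjusted p = 0.756). With 1 array left out it lay between 0.02 (without dexamethasone replicate 1) and 0.25 (without control replicate 2).

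Prkg1, the cyclic GMP-dependent kinase that relaxes smooth muscle, was the member with the lowest log2 change. It stood at 8.11, 8.47 and 8.15 in controls and 8.32, 8.28 and 8.02 after dexamethasone (log2 change -0.03, 95% interval -0.31 to 0.25). Itpr1, the receptor that releases calcium from stores, lay between 8.85 and 8.98 on all 6 arrays, with a log2 change of 0.03 (95% interval -0.11 to 0.17) in the fit over all probe sets.

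The transcriptional and RNA regulators gave no call among 2 (by limma's unadjusted p under 0.05, 2 higher and 0 lower, beside 5.97% and 7.14% of all genes). Myocd, which encodes myocardin, read 8.05, 8.56 and 8.36 in controls and 8.72, 8.66 and 8.50 after dexamethasone. Control replicate 2 lay within the treated range, and the log2 change was 0.30 (SE 0.13, adjusted p = 0.379), or 0.16 without control replicate 1, the lowest sample. Rbpms, an RNA-binding protein that directs smooth muscle splicing, had groups apart, by 0.35 in log2 (SE 0.10, adjusted p = 0.195).

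Promoters of 5 members are shown: the called genes with a sequence, Cnn1 and Actn1, and 3 others picked because they carry a CArG box. Any relation of the boxes to the calls was not tested. They are RefSeq sequences on GRCm38.p6, given 5′ to 3′ over the 250 bases before the annotated start, and capitals mark CArG boxes, either exact (CC, then 6 bases that are each A or T, then GG) or with 1 of those 6 bases changed to G or C. The motif is its own reverse complement, so both strands are covered.
Cnn1, called, chr9:22099003-22099252, plus strand: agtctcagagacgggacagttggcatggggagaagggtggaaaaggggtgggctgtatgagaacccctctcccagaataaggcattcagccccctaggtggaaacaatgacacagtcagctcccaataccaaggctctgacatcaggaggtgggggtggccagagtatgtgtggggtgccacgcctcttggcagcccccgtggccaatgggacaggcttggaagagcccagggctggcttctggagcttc
Actn1, called, chr12:80260364-80260613, minus strand: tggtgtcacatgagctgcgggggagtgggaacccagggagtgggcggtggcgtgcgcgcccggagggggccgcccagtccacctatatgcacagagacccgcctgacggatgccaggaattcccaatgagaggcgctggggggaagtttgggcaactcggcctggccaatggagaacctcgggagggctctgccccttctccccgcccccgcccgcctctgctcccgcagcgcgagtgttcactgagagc
Acta2, not called, chr19:34255374-34255623, minus strand: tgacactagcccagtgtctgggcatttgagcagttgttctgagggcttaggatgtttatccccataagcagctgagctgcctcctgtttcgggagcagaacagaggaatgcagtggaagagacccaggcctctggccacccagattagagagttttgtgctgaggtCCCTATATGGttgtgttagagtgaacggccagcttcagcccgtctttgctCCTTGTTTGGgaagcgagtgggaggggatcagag
Myl9, not called, chr2:156775214-156775463, plus strand: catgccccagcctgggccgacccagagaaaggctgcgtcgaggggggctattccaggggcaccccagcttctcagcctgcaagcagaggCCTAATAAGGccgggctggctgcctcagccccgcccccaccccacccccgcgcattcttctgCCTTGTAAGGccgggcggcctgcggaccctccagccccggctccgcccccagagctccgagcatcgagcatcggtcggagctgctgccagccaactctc
Vcl, not called, chr14:20929148-20929397, plus strand: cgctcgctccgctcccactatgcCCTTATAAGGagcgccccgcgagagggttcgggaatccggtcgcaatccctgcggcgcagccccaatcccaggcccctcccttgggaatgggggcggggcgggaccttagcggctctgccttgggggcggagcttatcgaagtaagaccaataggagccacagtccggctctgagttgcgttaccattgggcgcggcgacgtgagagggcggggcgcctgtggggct
Of the 33 members, 27 had a promoter in the table, and Actg2, Tagln, Myh11, Myocd, Rbpms and Itpr1 did not. Some have several annotated starts, so the 27 have 34 promoter windows, and those of Ldb3 overlap. An exact box was found in 3 of the 27 genes (Myl9, Vcl and Ldb3), or in 4 of the 34 windows (11.8%), where 1.47% of 32851 mouse promoter windows of the same length hold one. Counting boxes 1 base off as well, 7 of the 27 genes held one, adding Acta2, Synm, Pdlim3 and Cacna1c, or 9 of the 34 windows (26.5%), against 8.59% of all windows. In Acta2 the boxes CCCTATATGG and CCTTGTTTGG start 84 and 34 bases before the annotated start. The windows of Cnn1 and Actn1 held none, nor did those of most members that were not called, such as Smtn, Tpm1, Tpm2, Des and Flna. Of the genes with an exact box, Myl9, Vcl and Ldb3 had log2 changes of 0.49, 0.05 and 0.38. The 6-base core of the glucocorticoid response element, TGTTCT or its reverse complement AGAACA, was in 5 of the 27 genes (Acta2, Mylk, Flna, Ldb3 and Cacna1c), none of them called, or in 6 of the 34 windows (17.6%), and in 16.1% of all windows. These matches are descriptions of the letters in a short window and say nothing of binding.

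Beyond the members, 6 lists of related genes were counted in the same fit, together 181 tested genes of which 8 rose and 1 fell. Over all genes 0.798% rose and 1.04% fell. By limma's unadjusted p under 0.05, 43 of the 181 were higher and 9 lower, beside 5.97% and 7.14% of all genes. Among 28 other actomyosin and RhoA pathway genes 0 passed (by limma's unadjusted p under 0.05, 2 higher and 3 lower). Their median log2 change was 0.04. The 3 of smallest p were Tagln2 and Myh9, the transgelin and the myosin heavy chain of non-muscle cells, at -0.32 and -0.20, and the calponin Cnn2 at 0.27 (adjusted p = 0.126, 0.234 and 0.159).

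Of 48 other dense body, adhesion and sarcolemma genes, 3 rose and 0 fell, beside 0.798% and 1.04% of all genes (median log2 change 0.21). Itga5, the alpha 5 integrin that binds fibronectin, stood at 8.46, 8.59 and 8.46 in controls and 9.29, 9.64 and 9.51 after dexamethasone. Here dexamethasone replicate 3 was as high as the other treated samples, unlike in most smooth muscle members. Itga5 rose 1.97-fold (log2 change 0.98, SE 0.097, limma adjusted p = 0.00399) and kept an adjusted p under 0.05 in all 17 other fits, up to 0.0487. Mustn1, a small nuclear protein of the musculoskeletal system, read 10.10, 10.08 and 10.02 against 10.84, 10.72 and 10.64, and rose 1.59-fold (log2 change 0.67, SE 0.069, adjusted p = 0.00508). It lost its call in 1 of 17 other fits, when dexamethasone replicates 1 and 2 were left out together (adjusted p = 0.145). Vim (vimentin, the intermediate filament of mesenchymal cells) rose 1.41-fold (adjusted p = 0.0390), a call lost without any 1 of the arrays other than dexamethasone replicate 3 (0.055 to 0.197) and with the replicate number as a block (0.0536). Among all 17 other fits, Vim was called in 9.

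Over all genes 0.798% rose and 1.04% fell, the shares to set beside the next 2 lists. Of 31 other calcium, channel and cyclic nucleotide genes, 0 rose and 1 fell. It was Itpr3, the inositol trisphosphate receptor typical of epithelia, 1.29-fold lower (log2 change -0.37, SE 0.059, limma adjusted p = 0.0276), with values of 10.77, 10.81 and 10.87 in controls and 10.48, 10.40 and 10.46 after dexamethasone. The call was lost without control replicates 2 or 3 or dexamethasone replicates 1 or 2 (adjusted p from 0.0815 to 0.158), with the replicate block (0.0911) and with quantile normalization (0.0516). Itpr3 was called in 9 of the 17 other fits. Of 21 receptor genes for contracting and relaxing agents, 2 rose and 0 fell. Ednrb, the endothelin B receptor, read 8.32, 8.37 and 8.22 against 8.81, 8.98 and 8.75 and rose 1.46-fold (log2 change 0.54, SE 0.081, adjusted p = 0.0200). Htr2b, a serotonin receptor that contracts gut muscle, read 8.05, 8.10 and 7.91 against 8.65, 8.52 and 9.003 and rose 1.63-fold (log2 change 0.70, SE 0.12, adjusted p = 0.0386). For Htr2b the highest value was that of dexamethasone replicate 3. Ednrb lost its call without control replicates 2 or 3 or dexamethasone replicates 1 or 2 (0.0522 to 0.12). Htr2b lost it without any 1 of the arrays other than dexamethasone replicate 3 (0.0612 to 0.196) and with the replicate block (0.0932). Over the 17 other fits, Ednrb was called in 11 and Htr2b in 10.

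Among 31 genes of the SRF pathway and gastric muscle transcription factors 0 passed (by limma's unadjusted p under 0.05, 2 higher and 2 lower; median log2 change -0.0065). Srf itself read 8.57, 8.33 and 8.44 in controls and 8.87, 8.79 and 8.68 after dexamethasone, with groups apart (log2 change 0.33, SE 0.083, adjusted p = 0.123). Foxf1, a factor of gut mesenchyme, had a log2 change of 0.34 (adjusted p = 0.0903) and Mrtfa, an SRF cofactor that senses free actin, of -0.24 (adjusted p = 0.173). Of 22 genes linked to glucocorticoid atrophy in skeletal muscle, 3 rose and 0 fell, beside 0.798% and 1.04% of all genes. Their median log2 change was 0.13, and 5 of the 22 were below 0. As the RNA is from whole tissue, the cells in which these genes changed are not known. Glul, glutamine synthetase, rose 1.87-fold (adjusted p = 0.0176) with the highest value, 12.46, in dexamethasone replicate 3, and Fkbp5 and Pdk4 rose 3.68-fold and 2.96-fold. Fkbp5 and Pdk4 also peaked in dexamethasone replicate 3, at 11.25 and 11.03. Glul, Fkbp5 and Pdk4 lost their calls without control replicate 2 (adjusted p = 0.056, 0.0503 and 0.0635), control replicate 3 (0.115, 0.0957 and 0.0697) or dexamethasone replicate 2 (0.1, 0.0883 and 0.0885), Pdk4 also without dexamethasone replicate 1 (0.0792) and Glul also with the replicate block (0.065). Of the 17 other fits, Fkbp5 was called in 13 and Glul and Pdk4 in 11 each.

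**Figure D3:**
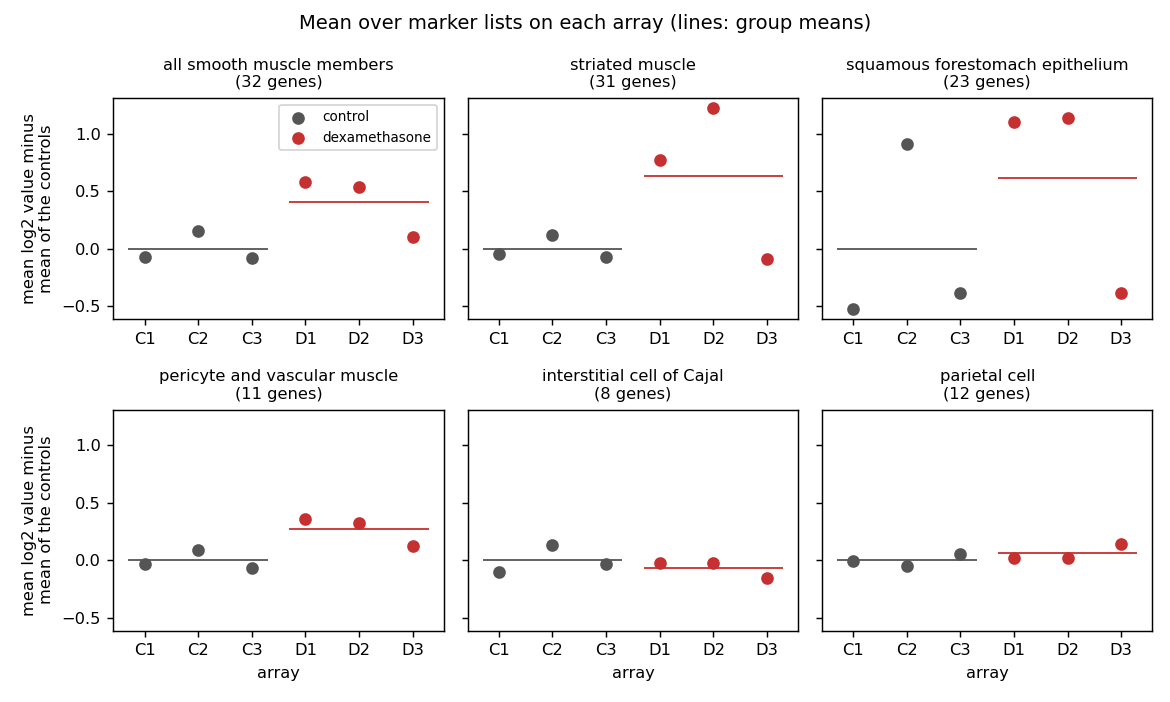
Each panel plots, for the 6 arrays (C1 to C3 control, D1 to D3 dexamethasone), the mean log2 value over a list of genes minus the mean of the 3 controls, and lines are group means. Smooth and striated muscle lists are high in D1 and D2, the squamous list in C2, D1 and D2, and the parietal cell list changes little between arrays.

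Markers of other cells were read beside the muscle genes. Over all genes 0.798% rose and 1.04% fell, the shares to set beside the counts of calls in these lists. Pericyte and vascular muscle genes averaged 8.55, 8.68 and 8.52 in controls and 8.95, 8.91 and 8.71 after dexamethasone, with Rgs4, a regulator of G protein signalling, rising 1.48-fold (limma adjusted p = 0.0466) and 10 of 11 not past the threshold. Without any 1 of the arrays other than dexamethasone replicate 3, Rgs4 lost its call (adjusted p from 0.065 to 0.225), as it did with quantile normalization (0.0536). Rgs4 was called in 9 of the 17 other fits. Genes of interstitial cells of Cajal, the pacemakers of gut muscle, averaged 8.74, 8.98 and 8.81 in controls and 8.82, 8.83 and 8.70 after dexamethasone, with the groups overlapping. Ano1, the chloride channel of these cells, which gastric epithelium also expresses, was the 1 of 8 to pass. It fell 1.57-fold, from 10.07, 10.19 and 10.06 to 9.66, 9.50 and 9.20 (log2 change -0.65, SE 0.12, adjusted p = 0.0391), a call lost without any 1 of the arrays other than dexamethasone replicate 3 (0.0516 to 0.17), with the replicate block (0.0546) and with quantile normalization (0.0725). Ano1 was also called in 9 of the 17 other fits. Among 18 enteric neuron and 7 enteric glia genes 0 passed (by limma's unadjusted p under 0.05, 1 higher and 2 lower, and 0 higher and 1 lower). Their list means were between 7.59 and 7.76 and between 7.91 and 8.03 on the 6 arrays. The neuron genes with the highest signal, Ret (a receptor kinase) and Npy (a neuropeptide), had log2 changes of 0.71 and -0.67, and the glial ones, Erbb3 and Sox10, of -0.43 and 0.10 (adjusted p from 0.109 to 0.657).

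Fibroblast genes had 2 of 13 higher, Pi16 1.62-fold and Pdgfra 1.48-fold (limma adjusted p = 0.00309 and 0.00553). Here and for the lists that follow, the shares of all genes were 0.798% higher and 1.04% lower. The median log2 change over the 13 was 0.15, and 2 were below 0, the lowest at -0.53. By limma's unadjusted p under 0.05, 5 were higher and 1 lower, beside 5.97% and 7.14% of all genes. Pi16 and Pdgfra each lost the call in 1 of 17 other fits, without dexamethasone replicates 1 and 2 (adjusted p = 0.106 and 0.179). Of 9 macrophage genes, Cd163 and Lyve1 rose 2.20-fold and 2.33-fold, while 3 of the 9 had a log2 change below 0 and 2 of these an unadjusted p under 0.05 by limma. Lyve1 was not called without control replicate 3 (adjusted p = 0.0605) or without dexamethasone replicate 1 (0.0539), and was called in 14 of 17 other fits. In the epithelial lists, 0 of 12 parietal and 0 of 6 chief cell genes passed (by limma's unadjusted p under 0.05, 1 higher and 0 lower, and 0 higher and 1 lower), and 2 of 8 mucous cell genes, Capn9 and Capn8, fell. In the squamous list 1 of 23 rose, Krt6a. Capn8 lost its call without control replicates 2 or 3 or dexamethasone replicates 1 or 2 (adjusted p from 0.0697 to 0.122), and Krt6a without control replicates 1 or 3 or dexamethasone replicates 1 or 2 (0.055 to 0.189). Capn8 was called in 11 of 17 other fits, and Krt6a in 10 of the 16 that included it. Those 10 include the fit with the squamous covariate, a mean that contains Krt6a itself, so for Krt6a that fit is no separate check. None of 31 striated muscle genes passed (by limma's unadjusted p under 0.05, 10 higher and 1 lower), nor any of 11 cardiac muscle genes (2 higher and 0 lower). The same held for endothelium (0 of 11, with 2 higher), mesothelium (0 of 8, with 1 lower) and adipocytes (0 of 9, with 1 higher), and of 11 exocrine pancreas genes Cel, a lipase, fell. The log2 change was above 0 in 7 of those 11, with a median of 0.03, and Cel was not called when dexamethasone replicates 1 and 2 were both left out (adjusted p = 0.0572), nor was Capn9 (0.133). For the 2 genes of highest signal in each list without a call, the log2 changes were 1.69 and -0.29 for striated muscle (Acta1 and Actc1), 0.21 and -0.17 for cardiac muscle (Nkx2-5 and Tnni3), and 0.04 and 0.04 for parietal cells (Atp4b and Atp4a, the proton pump). They were 0.09 and -0.0048 for chief cells (Chia1 and Pgc), -0.06 and 0.0036 for endothelium (Kdr and Flt1), -0.18 and -0.02 for mesothelium (Krt19 and Wt1) and 0.15 and 0.01 for adipocytes (Fabp4 and Lpl), all with an adjusted p of 0.294 or more.

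**Figure D4:**
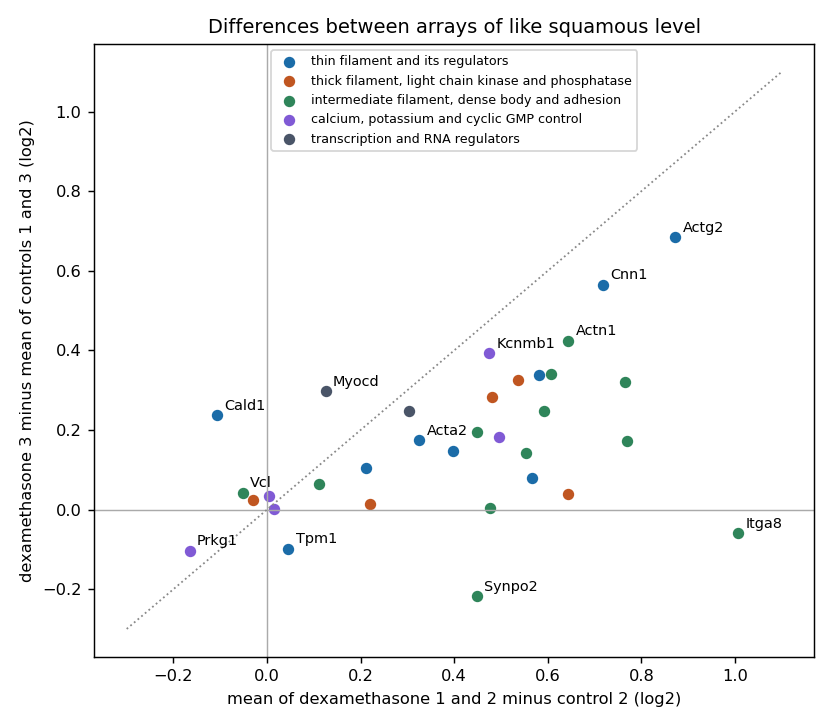
Each point is 1 gene, coloured by role: horizontally, the mean of dexamethasone replicates 1 and 2 minus control replicate 2 (the 3 arrays with high squamous markers), and vertically, dexamethasone replicate 3 minus the mean of control replicates 1 and 3 (the 3 with low ones), both in log2; the dotted line marks equal differences. Actg2, Cnn1 and Actn1 are well above 0 on both axes, while Itga8, Synpo2 and Tpm1 are above 0 on the horizontal axis alone. Striated muscle markers were higher in dexamethasone replicates 1 and 2 than in control replicate 2, so the horizontal axis is not matched for them.

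Because squamous markers were high in 1 control as well as in 2 treated samples, the members were also read between arrays of like squamous level. Striated markers were not matched between dexamethasone replicates 1 and 2 and control replicate 2, but were near level between dexamethasone replicate 3 and control replicates 1 and 3. Their mean was 8.22 and 8.67 in dexamethasone replicates 1 and 2 but 7.57 in control replicate 2. It was 7.36 in dexamethasone replicate 3 and 7.40 and 7.38 in control replicates 1 and 3. The mean of dexamethasone replicates 1 and 2 exceeded control replicate 2 in 28 of 32 members, with a median difference of 0.475 (all genes, 52% and 0.008). Dexamethasone replicate 3 exceeded the mean of control replicates 1 and 3 in 28 of 32, with a median of 0.173 (all genes, 50% and -1e-04). The first difference was the larger in 26 members, beside 51.1% of all genes. For Actg2 the 2 differences were 0.87 and 0.68, for Cnn1 0.72 and 0.57 and for Actn1 0.64 and 0.42. Among the members not called, Myh11 had 0.54 and 0.33, Des 0.61 and 0.34 and Mylk 0.22 and 0.01. These are differences between single samples or pairs and carry no test.

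Fits that took these markers into account gave different counts. With the squamous list's mean as a covariate, 6 members rose (Actg2, Actn1, Cnn1, Des, Kcnmb1 and Myh11), beside 2.52% of all genes called in that fit. The median log2 change over all 32 members was 0.28. With the striated list's mean as a covariate, chosen after seeing the data, 0 members passed (limma, 6 at an unadjusted p under 0.05), beside 0.688% of all genes. The median over the 32 was 0.17, and Actg2, Cnn1 and Actn1 stood at 0.73, 0.48 and 0.46 in log2 change (limma adjusted p = 0.071, 0.11 and 0.0988). Vim, Itpr3, Ednrb, Rgs4, Glul, Pdk4, Capn8 and Krt6a also lost their calls in this fit. This covariate was high in 2 treated samples and no control, so it overlaps with the treatment itself. Without dexamethasone replicate 3, 19 members rose, beside 2.73% of all genes called, and the median was 0.63. Without dexamethasone replicates 1 and 2, which leaves 1 treated sample assumed to vary as the controls do, the median was 0.09 and Actg2 stood at 0.68. With control replicate 3 removed, 0 members passed (limma, 12 at an unadjusted p under 0.05), as with dexamethasone replicate 1 (12) or 2 (13) removed. The shares of all genes called were 0.462%, 0.592% and 0.442%, in that order. Without control replicate 2 only Actg2 passed, and without control replicate 1 Actg2 and Actn1 did, beside 0.894% and 2.33% of all genes.

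**Figure D5:**
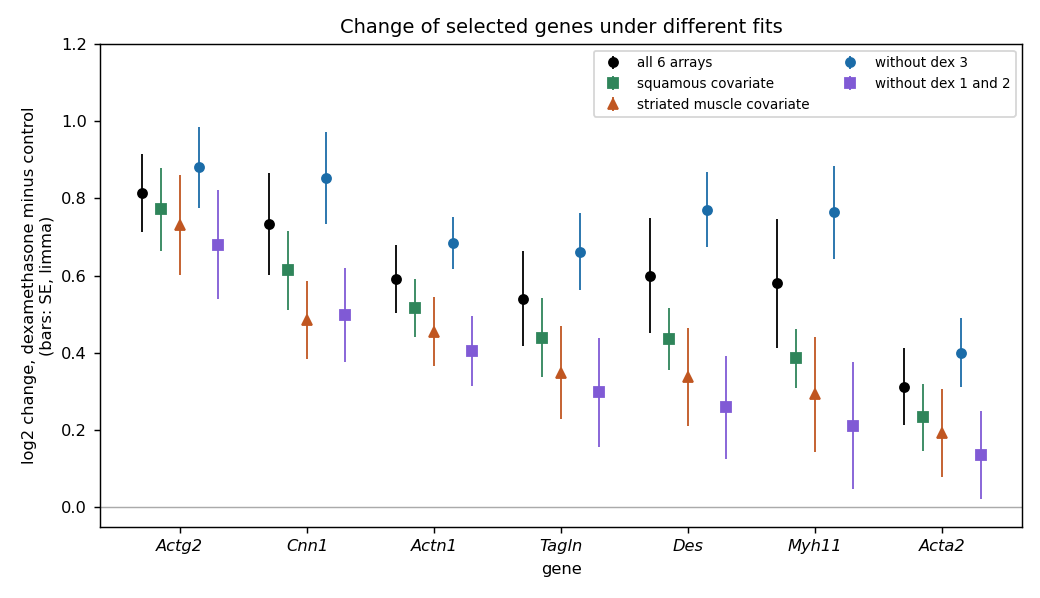
Points are log2 changes of 7 members, with bars for the SE from limma, fitted with all 6 arrays, with the squamous or striated list mean as a covariate, and without dexamethasone replicate 3 or without replicates 1 and 2. All plotted changes are above 0, and those of Actg2 spread least relative to their size, between 0.68 and 0.88.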

How the data were processed

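In the deposited table the authors gave RMA expression as log2, with 1 value for each probe set on each array. Per the submitters' processing notes R 2.9, limma and RMA were used, with no role stated, and the chip definition is not given in the sources used here. RMA normally equalises arrays, so changes are relative to the bulk of genes, and it compresses dim probe sets. Of 20985 probe sets, 19921 had 1 gene symbol, 0 several and 1064 were not listed in the platform annotation. For the 2 symbols carried by 2 probe sets the one with the higher mean was used, which left 19919 genes. No array could be assigned to a batch, and 3 arrays per group limit the precision.

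The group comparison used lmFit and eBayes of limma 3.58.1 under R 4.3.3 (two-sided, no covariate, Benjamini-Hochberg over all genes, threshold 0.05). An exact permutation test of 3 against 3 cannot go below p = 0.1, so none was run. The members, the gene lists (from textbook knowledge) and the choice of genes to name were made with earlier results of these data known. Every member is given, every called gene of each related list, otherwise the 3 of smallest p, and of each marker list every called gene, otherwise the 2 of highest mean level. Alternatives were the replicate block, median centring, a filter on the dimmest 40% of genes, quantile normalization, averaging probe sets, a trend and robust prior, array weights, all probe sets, marker covariates and leaving out arrays. The scripts were tested on simulated data.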

Additional observations from a re-analysis of the deposited data

How the results depend on the processing

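The 3 called members were 3 as well with median centring, the dimmest 40% of genes left out, averaged probe sets, a trend and robust prior and all probe sets, and 2 with quantile normalization. In these fits 1.83% to 2.9% of all genes were called. Averaging probe sets could alter only 2 symbols, and the fit over all probe sets mainly added the 1064 not listed. In both, the members kept their log2 changes, and Actg2 had an adjusted p of 0.0114 by limma, as in the main fit. Agreement of these 2 fits with the main fit is therefore no separate check. The count of called members was 5 with the replicate block (1.1% of all genes called), 21 with array weights (8.92%), 6 with the squamous covariate (2.52%) and 0 with the striated covariate (0.688%). It was from 0 to 19 with single arrays left out, where 0.442% to 2.73% of all genes were called. For the 9 called genes of the related lists it was 45 with array weights, 16 with the squamous covariate, 5 with the striated covariate, 2 without dexamethasone replicates 1 and 2, and from 2 to 22 with single arrays left out. The mean log2 change over the members, 0.406, was 0.101 without dexamethasone replicates 1 and 2. Same-numbered samples are not shown to be paired: their deviations from the group means correlated at -0.282, 0.351 and 0.231, and the block added Pgm5 and Tagln to the called members. The cause of these shifts was not tested. Sign changes, all in members that were not called, were as follows. Leaving out dexamethasone replicates 1 and 2 gave -0.102 for Mylk, -0.0149 for Ppp1r12b, -0.448 for Synpo2, -0.032 for Vcl, -0.0552 for Ldb3, -0.145 for Itga8 and -0.0806 for Cacna1c. The striated covariate gave -0.0258 for Mylk, -0.0372 for Ppp1r12b, -0.244 for Synpo2, -0.0462 for Vcl and -0.0235 for Cacna1c, and the squamous covariate -0.0121 for Ppp1r12b, -0.0246 for Vcl and -0.0116 for Cacna1c. Without control replicate 1, Cald1 was at -0.0126, Ppp1r12b at -0.00889 and Vcl at -0.0437. Ppp1r12b was at -0.0201 without dexamethasone replicate 2, Tpm1 at 0.00468 without dexamethasone replicate 3, and Prkg1 at 0.0508 with array weights, 0.0827 without control replicate 2 and 0.0619 without dexamethasone replicate 3. At the other end of the fits with 1 array left out, Tpm1 was at -0.0434, Cald1 at 0.379, Ppp1r12b at 0.0664, Vcl at 0.129 and Prkg1 at -0.0989.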
